A study of Mus musculus with 2 samples.

Results

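The genes described here encode the machinery that copies DNA and the enzymes that supply its nucleotides. They are 48 genes: the origin recognition complex, the licensing factors, the MCM helicase and related MCM proteins, the kinase that fires origins, CDC45 and GINS, the replicative polymerases and primase, the sliding clamp and its loader, the single-strand binding protein RPA, the enzymes that join Okazaki fragments, and 4 enzymes of deoxynucleotide supply. They are the genes of a list drawn up by role, matched to the array by symbol. The rule uses no measured value, but the list was drawn up with earlier results of these data known. All 48 had a probe, out of 29924 genes named on the array, and all 48 were among the 21598 genes bright enough to be tested.

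The RNA came from explanted E12.5 ureters of mice of the NMRI strain (wildtype), kept in culture for 18 h. The control explants received the solvent DMSO at 2 parts per 1000, and the treated explants received 10 µM BIO, a small-molecule inhibitor of the kinase GSK3 that is used to activate canonical WNT signaling. All samples shared strain, genotype, stage, tissue and culture time, and sex was not determined. Each of 2 two-color arrays carried 1 control RNA and 1 BIO RNA, and the dyes were exchanged between replicate 1 and replicate 2. Each RNA came from a pool of ureters, so no value belongs to a single embryo, and the whole explant was exposed to BIO.

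Before a cell divides, the origin recognition complex marks the sites where DNA copying will begin, and CDC6 and CDT1 load the MCM helicase there. The kinase CDC7 with its activator DBF4, and then CDC45 and GINS, turn the loaded helicase into an active fork, where primase, the polymerases, the clamp PCNA and RPA build the new strands from nucleotides supplied by ribonucleotide reductase and its partners. Many genes of this machinery are transcribed in cells that enter S phase under control of the E2F family of transcription factors, and dividing progenitors of embryonic organs such as the ureter use it heavily.

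For each probe a log2 ratio of BIO over control was taken within each array, so a positive value means more signal with BIO. The mean of both ratios was tested against 0 with limma, and a gene was said to have risen or fallen when its p-value, adjusted by Benjamini-Hochberg over all 28824 probes tested, was below 0.05. Errors on log2 ratios are the standard errors of this fit (n = 2 arrays). Intensities are normalized probe brightness in arbitrary units, given for the control and BIO channel of replicates 1 and 2 in that order, and they are not comparable between genes. A channel had between 70.1% and 80.9% of its biological spots well above background, and the treatment was visible in the WNT target gene Axin2, whose log2 ratio was 2.15 ± 0.12 (limma adjusted p = 3.41e-05).

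Most genes of the replication machinery rose with BIO. Of the 48 genes, 39 rose, 0 fell and 9 were not called. An unadjusted limma p below 0.05 was found for 41, a share that was not counted over all genes. Over all genes tested, 9.14% rose and 14.8% fell. The median log2 ratio of the 48 genes was 0.60, equal to 1.52-fold, against a median of -0.01 over all genes. It was 0.56 in replicate 1 and 0.68 in replicate 2, and 46 of the 48 genes were higher with BIO on both arrays. The remaining 2, Orc4 and Gins4, were lower on both arrays by less than the test could call. The changes were moderate: 26 genes rose by at least 1.5-fold on average, and 3 by at least 2-fold. By log2 ratio the lowest of the 26, Prim2, ranked 813 from the top of all 21598 genes tested. The lowest of the 3, Pole, ranked 205. The 48 log2 ratios ran from -0.15 for Orc4 to 1.10 for Prim1, and 39 genes (81.25%) lay in the highest 10% of all genes, which began at 0.35. With each array centered on its median in place of loess 24 genes rose, with the scanner software's processed signals 20, and 19 of the 39 calls were kept under both. With the authors' deposited score, which is rounded, 14 genes rose, of which 8 were among the 39: Cdt1, Gins2, Pola1, Pole, Rfc1, Rfc2, Rfc3 and Lig1. The other 31 calls were lost with that score, those of Prim1, Tk1, Rrm2 and Orc1 included. The score also called Orc2, Orc3, Orc5, Mcm7, Pole2 and Rpa3 as risen, which were not called in the fit reported here. In bulk RNA, more cells in S phase and more RNA per cell cannot be told apart.

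**Figure D1:**
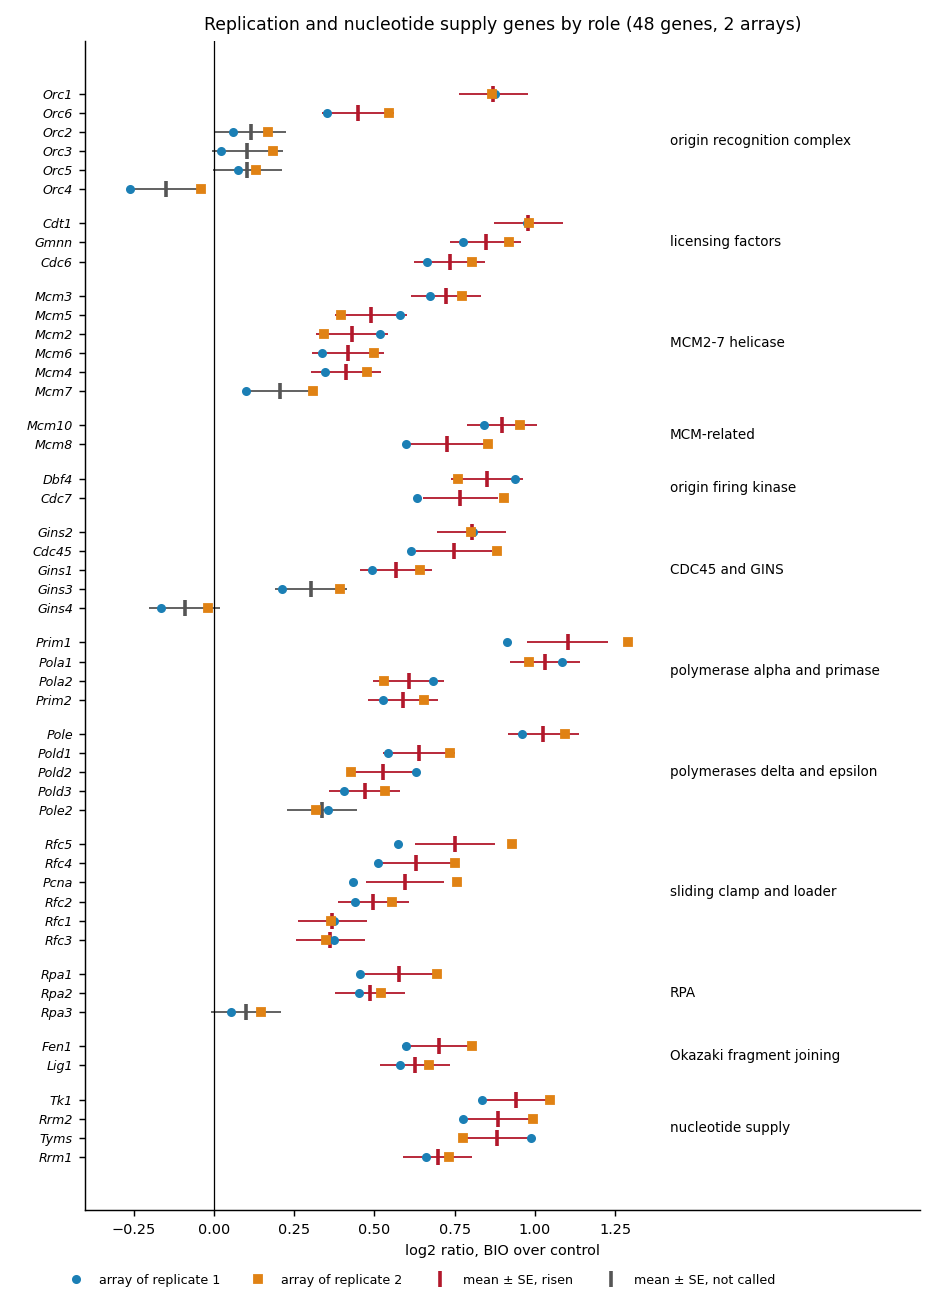
Log2 ratio of BIO over control for each of the 48 genes, grouped by role (x axis, log2 scale). Circles and squares are the arrays of replicates 1 and 2, and the bar is the mean ± SE from limma, red for the 39 genes that rose and grey for the 9 that were not called. Only Orc4 and Gins4 lie left of 0 on both arrays, and Prim1, Pola1 and Pole lie furthest to the right.

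The arrays gave nearly the same order of the genes. Across the 48 genes the log2 ratios of both arrays had a Pearson correlation of 0.88, which is a description over genes that share the same 4 RNA samples. The arrays differed by a median of 0.15 over these genes and by at most 0.38, the value of Prim1. Replicate 1 had the larger ratio for 12 genes and replicate 2 for the others, and the dye of the BIO RNA differed between them. Both BIO intensities lay above both control intensities for 43 of the 48 genes, while this held for 26.5% of all genes tested. The 5 genes whose intensities overlapped were Orc2, Orc4, Orc5, Gins4 and Rpa3, and none of them was called. Each array was normalized on its own, and the control intensity was higher in replicate 1 for 47 of the 48 genes. Such an overlap sets channels of different arrays side by side and ignores their pairing. Within each array Orc2, Orc5 and Rpa3 were higher with BIO.

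**Figure D2:**
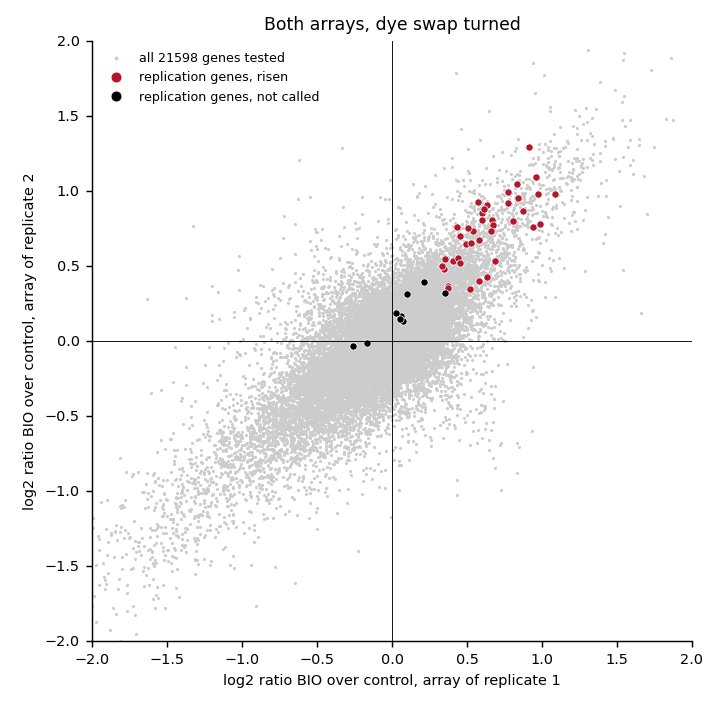
Log2 ratio of BIO over control on the array of replicate 1 (x axis) against that of replicate 2 (y axis), with all 21598 genes tested in light grey (155 lie outside the axes). The 39 replication genes that rose (red) lie above 0 on both axes, and 7 of the 9 genes not called (black) do so too, with Pole2 and Gins3 next to the weakest of the called genes.

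**Figure D3:**
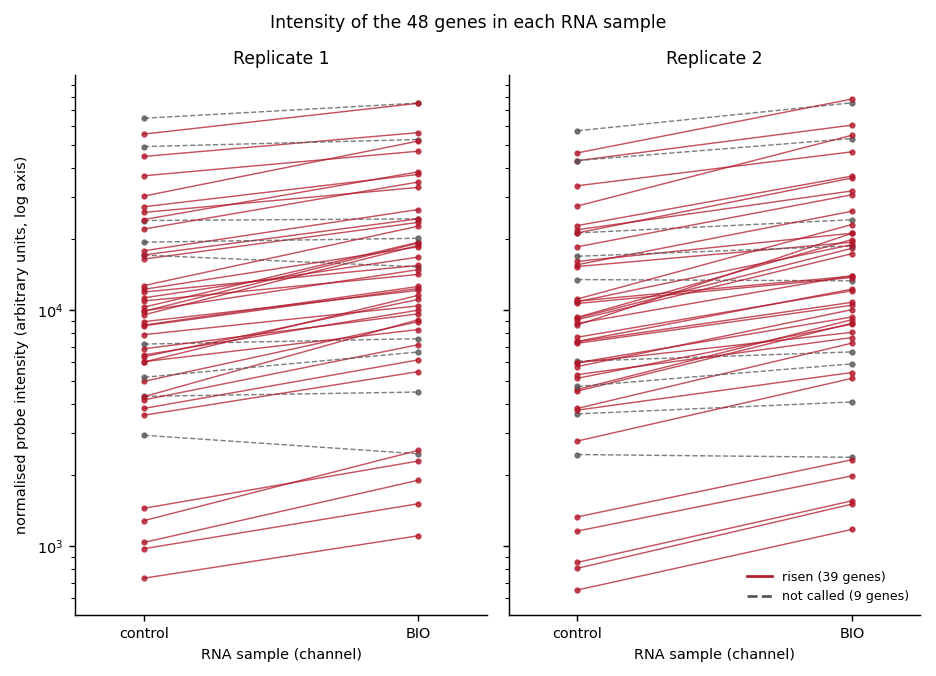
Normalized intensity of each of the 48 genes in the control and BIO channel of each array (y axis, log scale, arbitrary units), with 1 line per gene. The solid red lines of the 39 genes that rose climb from control to BIO on both arrays, and the dashed grey lines are the 9 genes not called.

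To describe the promoters of these genes, the 300 bases around each start site in RefSeq (250 before and 50 after, build GRCm38.p6) were searched on both strands. The E2F letters sought were TTTCCCGC, TTTCGCGC, TTTGCCGC and TTTGGCGC, which can overlap one another. The table held promoters for 40 of the 48 genes. E2F letters stood in 16 of these 40 genes (40%), against 2.6% of all 27025 genes of the table and 3.94% of the 12940 tested genes with a promoter. CCAAT stood in 60% of the 40 genes and in 41.1% of all genes, and the CHR letters TTTGAA, found at many cell cycle promoters, stood in 17.5% and 20.2%. Among the tested genes with a promoter the shares were 41.9% for CCAAT and 15% for CHR. Genes with and without E2F letters covered overlapping ranges of response. The 16 genes with them had a median log2 ratio of 0.56 (0.10 to 1.03) with 12 risen, and the 24 without them had a median of 0.62 (-0.15 to 1.10) with 20 risen. A match is a run of letters, not a measured binding site.

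In 9 genes the E2F letters began before the start site. The 160 bases before the start are shown for the 4 of these with the largest log2 ratios, Pola1, Orc1, Cdc6 and Mcm5, and below them for Rpa3 and Orc5, the promoters of the 2 genes with the log2 ratios nearest 0 among those in the table. Other genes with large ratios, such as Cdt1, Mcm3 and Mcm8, have their letters after the start and are not shown. Each line runs 5′ to 3′ on the gene's strand and ends at the base before the start, and capitals mark E2F letters on either strand.
Pola1: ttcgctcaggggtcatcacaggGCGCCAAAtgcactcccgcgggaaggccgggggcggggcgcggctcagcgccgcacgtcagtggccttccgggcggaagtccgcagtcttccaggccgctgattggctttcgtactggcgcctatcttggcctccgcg
Orc1: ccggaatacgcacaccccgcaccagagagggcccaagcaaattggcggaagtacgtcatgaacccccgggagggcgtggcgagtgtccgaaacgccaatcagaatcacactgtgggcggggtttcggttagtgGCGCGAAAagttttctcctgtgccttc
Cdc6: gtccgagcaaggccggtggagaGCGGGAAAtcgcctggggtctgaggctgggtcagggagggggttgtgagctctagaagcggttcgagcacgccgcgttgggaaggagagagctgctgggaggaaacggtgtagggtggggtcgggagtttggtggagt
Mcm5: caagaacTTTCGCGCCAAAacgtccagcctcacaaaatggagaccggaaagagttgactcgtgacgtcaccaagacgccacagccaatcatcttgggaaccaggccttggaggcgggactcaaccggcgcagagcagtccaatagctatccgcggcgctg
Rpa3: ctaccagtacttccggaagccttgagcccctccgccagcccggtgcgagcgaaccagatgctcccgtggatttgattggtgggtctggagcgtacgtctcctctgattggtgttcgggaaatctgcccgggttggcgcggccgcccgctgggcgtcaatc
Orc5: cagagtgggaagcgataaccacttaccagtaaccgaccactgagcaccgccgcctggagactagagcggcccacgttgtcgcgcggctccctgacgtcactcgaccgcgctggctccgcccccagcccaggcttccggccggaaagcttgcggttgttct
On GRCm38.p6 these stretches are chrX:93632156-93632315 (minus strand) for Pola1, chr4:108579294-108579453 (plus) for Orc1, chr11:98907991-98908150 (plus) for Cdc6, chr8:75109349-75109508 (plus) for Mcm5, chr6:8259142-8259301 (minus) for Rpa3 and chr5:22550339-22550498 (minus) for Orc5. The letters began at position -138 from the start in Pola1 and Cdc6 and at -27 in Orc1. In Mcm5 a pair of matches overlapped, beginning at -153 and -149. Pola1, Orc1 and Cdc6 rose by more than the median of the 48 genes and Mcm5 by less, while Rpa3 and Orc5 were not called. The first 4 were picked for holding the letters, so the printed set is not a comparison. Orc3, Mcm7, Gins3 and Pole2 hold E2F letters and were not called. Prim1, Tk1 and Rrm2 rose and hold none in the stretch searched.

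Within the origin recognition complex, which binds origins, the response was split. Of its 6 subunits 2 rose. Orc1, the subunit whose amount in many mammalian cells varies over the cell cycle, had intensities of 1036 and 853 in control and 1901 and 1554 with BIO. Both BIO samples were far above both controls, and its log2 ratio was 0.87 ± 0.11 (limma adjusted p = 0.000942), with 0.88 and 0.87 on the arrays. Orc6, a subunit less tightly bound to the others, rose by 0.45 ± 0.11 (adjusted p = 0.024), a call lost with median centering and with processed signals.

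The subunits ORC2 to ORC5, which form the stable core of the complex, did not pass the test. Orc2 had a log2 ratio of 0.11 ± 0.11, Orc3 of 0.10 ± 0.11 and Orc5 of 0.10 ± 0.11. Orc4 had intensities of 2946 and 2441 in control and 2459 and 2376 with BIO, so that its groups overlapped, and a log2 ratio of -0.15 ± 0.11 (limma adjusted p = 0.399). Across both arrays these 4 genes stayed between -0.26 and 0.19. With the deposited score Orc2, Orc3 and Orc5 were called as risen, each at 0.14. The gap between Orc1 and Orc4 was 1.14 in replicate 1 and 0.90 in replicate 2, against a combined SE of 0.16. As the pair with the widest gap it is a description.

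All 3 licensing factors rose. Cdt1, which brings the MCM helicase to the origin, had intensities of 9536 and 9243 in control and 18763 and 18236 with BIO. Its ratio was almost equal on both arrays, 0.98 and 0.98, and its mean of 0.98 ± 0.11 equals 1.97-fold (limma adjusted p = 0.000548). Gmnn encodes geminin, the inhibitor that binds CDT1 and blocks relicensing in the same cycle, and it rose as well, by 0.85 ± 0.11 (adjusted p = 0.00121), from 4159 and 3829 in control and 7125 and 7234 with BIO. Cdc6, the loading ATPase, rose by 0.73 ± 0.11 (adjusted p = 0.00247), with intensities of 1446 and 1330 in control and 2292 and 2319 with BIO. CDT1's gene and that of its inhibitor moved in the same direction and by a similar amount.

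The genes of the MCM2-7 ring, the core of the replicative helicase, had smaller log2 ratios than the licensing factors, with a median of 0.42 against 0.85. Its called genes were Mcm3 at 0.72 ± 0.11, Mcm5 at 0.49 ± 0.11, Mcm2 at 0.43 ± 0.11, Mcm6 at 0.42 ± 0.11 and Mcm4 at 0.41 ± 0.11, with limma adjusted p-values from 0.00253 to 0.030. Mcm3 had intensities of 24151 and 21189 in control and 38464 and 36204 with BIO. Mcm7 was the exception. Its intensities were 49199 and 42924 in control and 52692 and 53201 with BIO, and its log2 ratio of 0.20 ± 0.11 was not called (adjusted p = 0.24). With the deposited score Mcm7 was called as risen, at 0.26. The products of these genes assemble in equal numbers, yet Mcm3 exceeded Mcm7 by 0.57 in replicate 1 and by 0.46 in replicate 2 (combined SE 0.16), a pair again named for its gap. The calls of Mcm2, Mcm4, Mcm5 and Mcm6 were lost with median centering and with processed signals, while that of Mcm3 was kept under both. With median centering the ratio of Mcm3 was 0.80, above that of the licensing factor Cdc6 at 0.61. The other ring genes stayed below Cdc6.

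The genes of both MCM proteins outside the ring rose. Mcm10, which joins the helicase at firing and helps to recruit polymerase alpha, had intensities of 4986 and 4532 in control and 8923 and 8781 with BIO and rose by 0.90 ± 0.11 (limma adjusted p = 0.000888). Mcm8, whose product works with MCM9 in repair by homologous recombination, rose by 0.72 ± 0.12 (adjusted p = 0.00336) from 731 and 652 in control and 1106 and 1176 with BIO. Its probe was well above background in every channel, as were those of all 48 genes, and its call was lost with median centering (adjusted p = 0.0515) but not with processed signals.

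Both parts of the origin-firing kinase rose by similar amounts. Dbf4, the regulatory subunit, had a log2 ratio of 0.85 ± 0.11 (limma adjusted p = 0.00128), with intensities of 6018 and 5137 in control and 11532 and 8706 with BIO. Cdc7, the catalytic subunit, had 0.77 ± 0.12 (adjusted p = 0.00271), with intensities of 975 and 805 in control and 1511 and 1505 with BIO. In replicate 1 Dbf4 had the larger ratio and in replicate 2 Cdc7, so no order between them was stable.

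CDC45 and the GINS complex bind the loaded MCM ring and complete the active helicase. Cdc45 rose by 0.75 ± 0.12 (limma adjusted p = 0.00303), from 3582 and 2786 in control and 5481 and 5130 with BIO. Among the 4 GINS subunits the responses differed widely. Gins2 rose by 0.80 ± 0.11 (adjusted p = 0.0014), with intensities of 6341 and 5759 in control and 11082 and 10026 with BIO, and Gins1 rose by 0.57 ± 0.11 (adjusted p = 0.00822), a call lost with median centering and with processed signals. Gins3 had a log2 ratio of 0.30 ± 0.11 and missed the threshold (adjusted p = 0.0892). With median centering Gins3 had 0.51, near Gins1 at 0.53, and neither was called.

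Gins4 behaved differently from its partners. Its intensities were 17070 and 13444 in control and 15226 and 13281 with BIO, with both controls and both BIO samples interleaved, and its log2 ratio was -0.09 ± 0.11 (limma adjusted p = 0.612). Gins2 exceeded Gins4 by 0.97 in replicate 1 and by 0.82 in replicate 2, with a combined SE of 0.15. Each of these genes was read by 1 probe, so a difference between subunits cannot be told apart from a difference between probes.

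By their brightest probes, the 3 genes with the largest log2 ratios were Prim1, Pola1 and Pole. They encode catalytic subunits of the enzymes that start and extend new strands. All 4 genes of the polymerase alpha and primase complex, which lays the RNA and DNA primer of every fragment, rose. Prim1, the catalytic primase subunit, had intensities of 10281 and 8638 in control and 19367 and 21105 with BIO. It had the largest log2 ratio of all 48 genes, 1.10 ± 0.13 or 2.15-fold (limma adjusted p = 0.000667), and also the widest spread, with 0.91 and 1.29 on the arrays.

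Pola1, the catalytic polymerase subunit, had intensities of 4294 and 4607 in control and 9099 and 9094 with BIO, so that BIO was about 2-fold above control on both arrays, and a log2 ratio of 1.03 ± 0.11. Its adjusted p of 0.000448 in limma was the lowest of the 48. The regulatory partners rose by less: Pola2 by 0.61 ± 0.11 (adjusted p = 0.0061) and Prim2 by 0.59 ± 0.11 (adjusted p = 0.00663). Both of these calls were lost with median centering and with processed signals.

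A similar step between a catalytic subunit and its partner was seen in polymerase epsilon, which extends the leading strand. Pole, the catalytic subunit, had intensities of 9875 and 9309 in control and 19197 and 19861 with BIO and rose by 1.03 ± 0.11, or 2.04-fold (limma adjusted p = 0.00048). Pole2, its second subunit, had 0.34 ± 0.11 and narrowly missed the threshold (adjusted p = 0.0565), with intensities of 5185 and 4743 in control and 6636 and 5910 with BIO that did not overlap. With the deposited score Pole2 was called as risen, at 0.38. The gap between Pole and Pole2 was 0.60 and 0.78 on the arrays, with a combined SE of 0.15. It rests on the brightest of 3 Pole probes. The dim probes of Pole gave 0.72 and 0.44, and the mean of all its probes was 0.73. In polymerase delta, which extends the lagging strand, the catalytic Pold1 rose by 0.64 ± 0.11 (adjusted p = 0.00516), Pold2 by 0.53 ± 0.11 (adjusted p = 0.0124) and Pold3 by 0.47 ± 0.11 (adjusted p = 0.0178). These 3 lay closer together, and their calls were lost with processed signals, those of Pold2 and Pold3 also with median centering. Further subunits of both enzymes stood in a list described below, and none was called. Pold4 of polymerase delta had -0.33 ± 0.11 (limma adjusted p = 0.0622), with -0.27 and -0.40 on the arrays, so it lay far below Pold1. Pole3 and Pole4 of polymerase epsilon had 0.34 ± 0.12 and 0.30 ± 0.11, near Pole2.

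All 6 genes of the sliding clamp and its loader rose. Pcna encodes the clamp that holds the polymerases on DNA and had intensities of 55572 and 46260 in control and 75054 and 78159 with BIO. Its log2 ratio was 0.60 ± 0.12 (limma adjusted p = 0.00997), with 0.43 and 0.76 on the arrays. Of the loader subunits, Rfc5 rose most, by 0.75 ± 0.12 (adjusted p = 0.00382), followed by Rfc4 at 0.63 ± 0.12 and Rfc2 at 0.50 ± 0.11. Rfc1, the large subunit, had 0.37 ± 0.11 (adjusted p = 0.0412) and Rfc3 had 0.36 ± 0.11 (adjusted p = 0.0439). Rfc1 and Rfc3 had the smallest log2 ratios of the 39 calls and were the only calls lost when the normexp offset was lowered from 50 to 16. With processed signals all 6 calls were lost, and with median centering those of Rfc1, Rfc2 and Rfc3.

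RPA coats the single strands that the helicase exposes, and 2 of its 3 subunits rose. Rpa1, the large DNA-binding subunit, had intensities of 27362 and 22774 in control and 37489 and 36890 with BIO and rose by 0.58 ± 0.12 (limma adjusted p = 0.00928). Rpa2 rose by 0.49 ± 0.11 (adjusted p = 0.0144). Both calls were lost with processed signals, and that of Rpa2 also with median centering. Rpa3, the small subunit, had 19366 and 16876 in control and 20108 and 18668 with BIO. It was higher with BIO within each array, although its intensities overlapped between the arrays. Its log2 ratio of 0.10 ± 0.11 was not called (adjusted p = 0.566). With the deposited score Rpa3 was called as risen, at 0.14.

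The enzymes that finish lagging strand fragments both rose. Fen1, the nuclease that removes the displaced flap, had intensities of 12233 and 10835 in control and 18514 and 18895 with BIO and rose by 0.70 ± 0.11 (limma adjusted p = 0.00348). Lig1, the ligase that seals the nick, had 9911 and 8778 in control and 14813 and 13978 with BIO and rose by 0.63 ± 0.11 (adjusted p = 0.00482). The BIO samples of both genes lay clear of their controls.

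All 4 genes of nucleotide supply rose, with a median log2 ratio of 0.88, the highest median of any role. Tk1, the thymidine kinase of S phase, had intensities of 12683 and 11130 in control and 22634 and 22992 with BIO, and its log2 ratio was 0.94 ± 0.11 (limma adjusted p = 0.000852). Rrm2, the small subunit of ribonucleotide reductase that limits its activity in S phase, had 30362 and 27561 in control and 51923 and 54900 with BIO and rose by 0.88 ± 0.11 (adjusted p = 0.00117). Its partner Rrm1, the large subunit, rose by 0.70 ± 0.11 (adjusted p = 0.0029), from 22012 and 18516 in control and 34825 and 30739 with BIO. Tyms, which makes thymidylate, had 1282 and 1158 in control and 2543 and 1982 with BIO and rose by 0.88 ± 0.11 (adjusted p = 0.00116).

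Enzymes of the same reactions that are not tied to S phase were set beside them, a choice made after their values were seen. Rrm2b, the small reductase subunit used outside S phase and after DNA damage, had intensities of 574 and 520 in control and 459 and 431 with BIO and a log2 ratio of -0.30 ± 0.11, which was not called (limma adjusted p = 0.0838). Rrm2 exceeded Rrm2b by 1.10 and 1.27 on the arrays (combined SE 0.16). Tk2, the mitochondrial thymidine kinase, had 2607 and 2303 in control and 2677 and 2337 with BIO, with a log2 ratio of 0.03 ± 0.11 (adjusted p = 0.88), and Tk1 exceeded it by 0.80 and 1.02 (combined SE 0.16). By contrast, Mcm9, the partner of MCM8, rose by 0.53 ± 0.11 (adjusted p = 0.0111), 0.20 below Mcm8. These differences are larger than the spread between arrays for both enzyme pairs, and smaller than it for Mcm8 and Mcm9.

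Where a gene had several probes, they mostly moved together. The 48 genes were read by 62 probes, of which 61 were tested, and 12 genes had more than 1. Among these 12 genes the tested probes of a gene differed by at most 0.20, except for Gmnn and Pole. A dimmer Gmnn probe, placed by the file on the opposite strand from the brighter one, gave 0.52 against 0.85, and both were called. For Pole the bright probe gave 1.03 and a pair of dim probes gave 0.72 and 0.44, of which the lowest was not called. Taking the mean of all probes of a gene raised the number of risen genes from 39 to 40, through Pole2. The brightest probes of the genes with the largest ratios lie, in the build named by the file headers, mm9, at chr10:127466952-127467011 for Prim1, chrX:90550189-90550248 for Pola1, chr5:110766375-110766434 for Pole and chr8:125096893-125096952 for Cdt1. Exons were not assigned to these positions.

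The study states an intensity and fold rule for its other arrays, which was applied here to the processed signals with a minimum intensity of 100 and at least 2-fold on both arrays. By this rule 2 of the 48 genes were higher, Pola1 and Pole, against 1.04% of all genes tested. Prim1, Cdt1 and Tk1 reached 2-fold in replicate 2 only, and Orc1 and Tyms in replicate 1 only. At 1.5-fold 21 genes passed, and at 3-fold 0, and the shares over all genes at these folds were not counted. The rule has no test.

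The wider replication program and a set of reference genes were described by 6 lists of other genes, which were chosen with earlier results of these data known. Of 33 tested genes of the S phase checkpoint and the accessory factors of the fork, 18 rose and 0 fell, with a median log2 ratio of 0.39 against -0.01 over all genes, of which 9.14% rose. Dna2, a nuclease that trims long flaps, had intensities of 4175 and 3966 in control and 10544 and 9388 with BIO and a log2 ratio of 1.29 ± 0.11 (limma adjusted p = 0.000177), above every one of the 48 genes. Ticrr, which helps to fire origins, rose by 1.16 ± 0.11 and Fbxo5, an inhibitor of the APC/C ligase that stabilizes geminin and cyclin A, by 1.06 ± 0.11. Top1, a topoisomerase, had 0.00 ± 0.12. With median centering and with processed signals 11 of the 33 rose. No probe carried the symbol of 1 further list gene, Supt16h.

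Of 14 genes listed for chromatin and histones at replication, 10 rose and 0 fell (median 0.64), with 7 risen under median centering and 8 with processed signals. Chaf1b, a subunit of the histone chaperone CAF-1, rose by 0.90 ± 0.11, Esco2, which acetylates cohesin in S phase, by 0.84 ± 0.11 and Uhrf1, which guides maintenance methylation of DNA, by 0.81 ± 0.11. Mms22l had 0.01 ± 0.11. Of 31 further genes of nucleotide metabolism 13 rose and 0 fell (median 0.32), with 6 risen under median centering and 5 with processed signals. Shmt1, which supplies one-carbon units, rose by 1.16 ± 0.11, and Pfas, of purine synthesis, by 0.81 ± 0.11. Adsl, another enzyme of purine synthesis, had 0.03 ± 0.11.

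Among 19 regulators of the step from G1 to S, 10 rose and 1 fell (median 0.45), with 4 risen under median centering and 6 with processed signals. E2f8, an E2F family member that represses, had intensities of 5346 and 4632 in control and 10543 and 11476 with BIO and rose by 1.14 ± 0.12 (limma adjusted p = 0.000464). Ccna2, which encodes cyclin A2, rose by 0.94 ± 0.11 and Ccne2, which encodes cyclin E2, by 0.84 ± 0.11, while E2f5 had 0.12 ± 0.11. The Ccne2 probe was dim, with 149 and 168 in control and 278 and 288 with BIO. The gene that fell was Rb1, the repressor of E2F, at -0.67 ± 0.11 (adjusted p = 0.00338), named here because it was the only 1 of the list to fall. Of 13 DNA polymerase genes that work outside the fork, 5 rose and 0 fell (median 0.21), with 2 risen under each of these settings. Poln and Polq, polymerases of repair, rose by 1.31 ± 0.11 and 0.95 ± 0.11 and Poli, of translesion synthesis, by 0.53 ± 0.11, and the mitochondrial Polg2 had 0.08 ± 0.12. The Poln probe was dim as well, with 298 and 254 in control and 701 and 661 with BIO.

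Of 10 genes often used as a reference 0 rose and 3 fell, with a median log2 ratio of -0.16. Among those that fell were Actb at -0.55 ± 0.14 and Ywhaz at -0.44 ± 0.11, and B2m had -0.06 ± 0.11. With each array centered on its median in place of loess, none of these 3 was called and another, Gapdh, rose by 0.63 (limma adjusted p = 0.034), with a list median of -0.02. Gapdh was named after its values were seen and was not called under any other setting, with 0.27 ± 0.12 in the fit reported here.

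**Figure D4:**
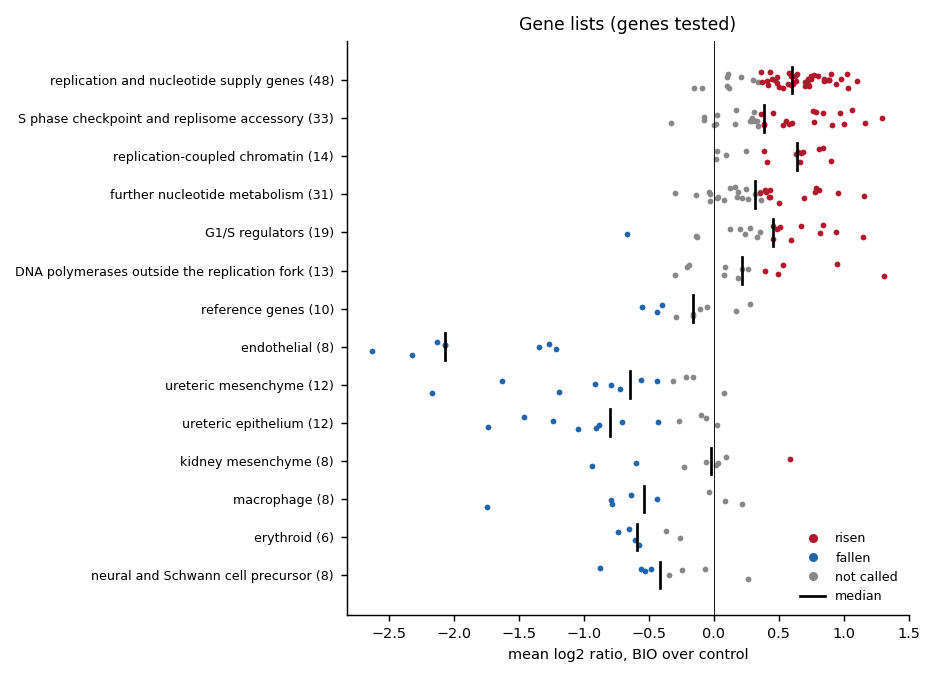
Mean log2 ratio of BIO over control (x axis) for each tested gene of the 48 replication genes and of each list, with the number of genes in brackets. Red points rose, blue points fell, grey points were not called, and the black bar is the median. The replication genes (0.60) and the replication-coupled chromatin genes (0.64) have the highest medians, and the endothelial markers (-2.07) the lowest.

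Markers of cell types moved with the treatment too, and those called mostly went in the other direction. Over all genes tested 14.8% fell. All 8 endothelial markers fell (median -2.07), also with median centering and with processed signals, and their summed intensity was 82145 to 85059 in control and 15561 to 23969 with BIO. Such sums, here and for the other cell types, add unlike probes and mostly follow the brightest ones. Kdr and Cdh5 fell most, by -2.63 ± 0.20 and -2.32 ± 0.22. Of 12 markers of ureteric mesenchyme 8 fell (summed intensity 871203 to 918455 in control and 523212 to 607480 with BIO), led by Pdgfrb at -2.17 ± 0.15 and Acta2 at -1.63 ± 0.11. With median centering 4 of them fell and with processed signals 6. Not called in the fit reported here were Tbx18 at -0.22 ± 0.11, Tcf21 at -0.32 ± 0.11, Foxf1 at -0.16 ± 0.25 and Ptch1 at 0.08 ± 0.14. Of 12 markers of ureteric epithelium 8 fell (217564 to 266614 against 146151 to 146968), led by Krt7 at -1.74 ± 0.11 and Ret at -1.46 ± 0.16. With median centering 7 fell and with processed signals 4. Epcam at 0.02 ± 0.11, Cldn7 at -0.06 ± 0.11, Gata3 at -0.10 ± 0.13 and Wnt9b at -0.27 ± 0.12 were not called.

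Other cell types gave fewer calls. Of 8 macrophage markers 5 fell (13976 to 14726 against 8777 to 11255), with Cx3cr1 at -1.75 ± 0.14 and Aif1 at -0.79 ± 0.17, and with processed signals 2 fell. Of 6 erythroid markers 4 fell (482631 to 504687 against 255006 to 394432), with Hbb-bt at -0.74 ± 0.15 and Hba-a1 at -0.65 ± 0.14, and with median centering 1 fell and with processed signals 0. Of 8 neural and Schwann cell precursor markers 4 fell (103913 to 113066 against 77180 to 88737), with Stmn2 at -0.88 ± 0.11, and under each of these settings 1 fell. Of 8 markers of kidney mesenchyme 2 fell and 1 rose (73585 to 86477 against 64264 to 72638), and the median of the 8 was -0.02. Osr1 fell by -0.94 ± 0.12 and Foxd1 by -0.60 ± 0.12. Wt1 rose by 0.58 ± 0.18 (limma adjusted p = 0.0471), with 0.18 and 0.98 on the arrays. With median centering 2 of the 8 fell and 0 rose, and with processed signals 1 fell and 0 rose. All genes of these lists were bright enough to be tested, so that no defining marker was at background in both groups. The part of these shifts in the rise of the replication genes was not tested.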

How the data were processed

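Two-color Agilent arrays of BIO against control ureter explants were analyzed, 2 arrays with exchanged dyes. Per the labels, the authors quantified the scans with Agilent Feature Extraction 10.7.3.1. The deposited scanner tables give spot intensities with local background, and processed signals that the software had background-subtracted and dye-normalized. The authors also deposited a score per probe and array, whose making is not given in the sources used here. It correlated with the log2 ratios computed here at 0.97 and 0.974 and was taken as a fold change with a sign (BIO higher is positive), with a column median of 1 on both arrays and its exact centering unknown.

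Mean intensities were corrected by normexp (offset 50) and normalized by loess within each array with limma 3.58.1 in R 4.3.3. Control spots and outlier spots (3.49% and 3.16% of biological spots) had weight 0 and were left out, and 0 spots were saturated. Spots of a probe (4) were averaged. Probes were tested when more than a share of 0.5 of their spots rose well above background on both arrays, either for control or for BIO, which held for 28824 of 39429 probes. The sign of replicate 2 was turned for its exchanged dyes, and both ratios were tested against 0 (lmFit, eBayes, two-sided). No dye term was fitted, since it would use up the only residual degree of freedom. A gene is its brightest tested probe. With 2 arrays their number limits the precision, and the median SE of a log2 ratio was 0.111. The methods describe separate pools of ureters for each RNA, so an array was taken as 1 replicate, and p-values measure the spread between arrays, which limma largely pools over all probes (7.14 prior degrees of freedom, prior SD 0.162), so that most SEs lie near the same value.

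The genes, the lists and the tests were chosen with earlier results of these data known. All 48 genes were named, and of each list the 3 genes with the largest absolute log2 ratio and the gene nearest 0 (for cell types, the 2 largest). Markers of ureteric mesenchyme and epithelium that were not called are named as well, as are Pold4, Pole3, Pole4 and Wt1. Some list genes that this rule names are not reported here. Alternatives were median centering, processed signals, an offset of 16, no filter, a filter on every channel, the mean of probes, the deposited score and leaving out each array. Promoter sequences are those of RefSeq, GRCm38.p6.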

Additional observations from a re-analysis of the deposited data

How the results depend on the processing

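The direction of the result did not depend on the processing, while the number of calls did. The median log2 ratio of the 48 genes was 0.60 to 0.64 under all 7 alternative settings of the fit and 0.56 to 0.68 when 1 array was left out, and 0 genes fell under any of the 7 settings. The number of risen genes was 39, and it was 37 with an offset of 16, 39 with no filter on dim probes, 39 with the filter on every channel and 40 with the mean of all probes. It was 24 with median centering, 20 with processed signals and 14 with the deposited score, of which 8 were among the 39. Over all genes the share that rose was 3.83%, 3.7% and 8.94% under these 3 settings. That share was 7.87% with an offset of 16 and 5.99% with no filter on dim probes. With the filter on every channel it was 9.63%, and with the mean of all probes 10.4%. The score is rounded, so that many probes have equal values on both arrays. The cause of the other differences was not tested. Under both median centering and processed signals 19 of the 39 calls were kept: Orc1, Cdc6, Cdt1, Gmnn, Mcm3, Mcm10, Dbf4, Cdc7, Cdc45, Gins2, Pola1, Prim1, Pole, Fen1, Lig1, Rrm1, Rrm2, Tyms and Tk1.

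Among the 120 tested genes of the pathway and reference lists, 56 rose, and 31 with median centering, 32 with processed signals and 27 with the deposited score. By the fold rule 2 genes were higher on both arrays, 21 at 1.5-fold, 0 at 3-fold, and 4 to 5 when 1 array was left out. The share over all genes was counted only for the 2-fold rule on both arrays (1.04%). The test is itself paired, since each ratio sets 1 BIO sample against the control sample of the same array, and no further pairing was fitted. With 2 arrays, the fit reported here called no change smaller than about 0.36 on the log2 scale for any of these 48 genes. The 9 genes not called are therefore not shown to be unchanged.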
